A study of Homo sapiens with 3 samples.

Results

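The ligands, receptors and SMAD proteins of the TGFB pathway were followed through single-cell transcriptomes of CAMA-1 spheroids. The set held 10 genes of the 22499 that carried a symbol in the count tables, and all 10 had UMIs in every population of cells. It was chosen by symbol: the ligands TGFB1, TGFB2 and TGFB3, the receptors TGFBR1, TGFBR2 and TGFBR3, the signal transducers SMAD2, SMAD3 and SMAD4, and the repressor SKIL. CAMA-1 is an established estrogen receptor-positive, luminal breast cancer cell line. The sensitive lineage was CAMA-1 labelled with the fluorescent protein Venus, and the resistant lineage was a CAMA-1 derivative, selected by long exposure to ribociclib, labelled with mCherry. Spheroids were started from 2000 cells as sensitive cells alone, as a 50% mixture of each lineage, or as resistant cells alone. All 3 cultures received 1 µM ribociclib, an inhibitor of the cell cycle kinases CDK4 and CDK6 (the label adds DMSO, the usual solvent), so that no untreated culture was compared here, and cells were harvested after 11 days. Each culture gave 1 library, and the authors assigned the cells of the mixed culture to a lineage, which gave 4 populations. Where 4 values follow each other they are for the sensitive monoculture, the sensitive coculture, the resistant coculture and the resistant monoculture, in that order. Both coculture populations came from the same library, whereas the 2 monocultures differed in library as well as in lineage, which cannot be told apart.

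TGFB ligands are secreted in a latent form, held by latent TGFB binding proteins, and must be released before they can bind. An active ligand binds the type II receptor TGFBR2, which recruits and phosphorylates the type I receptor TGFBR1, while the co-receptor TGFBR3, or betaglycan, presents ligand and is of particular importance for TGFB2. TGFBR1 phosphorylates SMAD2 and SMAD3, which join SMAD4 and enter the nucleus to regulate target genes. SKIL, also called SnoN, represses SMAD-driven transcription and is degraded and then re-induced when the pathway is active. In normal epithelium, including that of the breast, TGFB restrains proliferation, and in carcinomas it is also known for its part in epithelial plasticity and drug tolerance.

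The start sites of the ligand genes are shown because TGFB1 and the pair TGFB2 and TGFB3 differed in opposite directions between the sensitive monoculture and the other populations. The windows are from RefSeq on GRCh38.p14, cover 250 bases before to 50 bases after a start site, and are written 5′ to 3′ on the strand of the gene. Matches on either strand to TATAAA (the TATA box), to TGACGT (the core of the cAMP response element), to TGANTCA (AP-1) and to CAGAC (the core of the SMAD-binding element) are in capitals. TGFB1 had 1 window at chr19:41353873-41354172 on the minus strand, TGFB2 had 1 at chr1:218345086-218345385 on the plus strand, and TGFB3 had 2 on the minus strand, of which the upstream lay at chr14:75982962-75983261 and the downstream at chr14:75981946-75982245.
TGFB1: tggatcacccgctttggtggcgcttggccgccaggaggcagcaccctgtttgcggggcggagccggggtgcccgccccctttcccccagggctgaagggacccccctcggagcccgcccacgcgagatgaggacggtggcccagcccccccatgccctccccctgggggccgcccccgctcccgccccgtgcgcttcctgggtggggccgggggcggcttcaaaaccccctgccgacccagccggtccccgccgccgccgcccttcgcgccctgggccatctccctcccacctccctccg
TGFB2: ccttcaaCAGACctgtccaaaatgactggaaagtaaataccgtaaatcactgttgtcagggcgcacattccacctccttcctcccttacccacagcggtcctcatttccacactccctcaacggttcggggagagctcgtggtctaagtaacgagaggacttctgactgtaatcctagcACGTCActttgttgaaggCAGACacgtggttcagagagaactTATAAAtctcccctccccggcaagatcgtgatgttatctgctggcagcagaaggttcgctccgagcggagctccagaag
TGFB3 upstream: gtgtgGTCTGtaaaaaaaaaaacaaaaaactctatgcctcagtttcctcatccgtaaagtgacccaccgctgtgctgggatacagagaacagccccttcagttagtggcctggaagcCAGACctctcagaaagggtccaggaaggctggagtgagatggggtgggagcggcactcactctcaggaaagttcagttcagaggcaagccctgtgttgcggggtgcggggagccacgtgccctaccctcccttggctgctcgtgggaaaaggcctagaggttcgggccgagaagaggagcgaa
TGFB3 downstream: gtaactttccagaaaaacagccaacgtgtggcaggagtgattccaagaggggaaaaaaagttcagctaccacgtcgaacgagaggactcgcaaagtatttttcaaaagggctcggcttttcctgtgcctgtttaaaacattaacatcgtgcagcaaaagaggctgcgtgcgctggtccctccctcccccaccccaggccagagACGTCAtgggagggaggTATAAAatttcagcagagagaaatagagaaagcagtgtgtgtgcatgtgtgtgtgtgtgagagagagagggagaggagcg

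The TGFB2 window held TATAAA with its first base 29 bases before the start site and the cAMP response element core on the opposite strand 71 bases before it. The downstream window of TGFB3 held the same pair of motifs, 30 and 47 bases before the start site, whereas the upstream window of TGFB3 held neither. The TGFB1 window held none of the 4 motifs and was richer in G and C, at 77.3% against 51.7% for TGFB2 and 50.3% for the downstream window of TGFB3. CAGAC matched at 2 places in the TGFB2 window and at 2 in the upstream window of TGFB3. Over 35116 windows of the same length, TATAAA matched in 11.5%, TGACGT in 7.98%, TGANTCA in 7.71% and CAGAC in 45.3%. The SKIL window held the cAMP response element core at 3 places, of which 2 overlapped on opposite strands, and CAGAC at 1. Such matches describe these letters, and no binding was measured. Which start site these cells used, and any link of the motifs to the levels, was not tested.

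The count tables held 8643, 20227 and 11502 barcodes for the sensitive monoculture, the coculture and the resistant monoculture, of which the authors' cell table kept 3329, 8351 and 7557. The mixed library split into 2059 sensitive and 6292 resistant cells. Median depth per cell ran from 27622 to 35443 UMIs, lowest in the sensitive monoculture, which also had the highest median mitochondrial share, at 20.9% against 15.2% to 17.3% in the other populations. Only 11.0% of cells in the sensitive monoculture were in S or G2M phase, against 44.7% in the sensitive coculture, 50.3% in the resistant coculture and 50.0% in the resistant monoculture. Between 34 and 60 barcodes were shared by any pair of libraries, and 7 to 17 of those were annotated cells in both. All 7 luminal markers were above 1 CPM (counts per 1000000 UMIs) in every population, with a summed level of 7659 to 9605. Of the fibroblast markers LUM had no UMI, and COL1A2 and DCN had none in either sensitive population, although COL3A1, a collagen gene, went from 35.2 CPM in the sensitive monoculture to 0.181 in the resistant monoculture, and the list summed to 2.64 to 38.4; the part of COL3A1-expressing cells in the results was not tested. COL1A1, another collagen gene, was at 2.40 to 3.61 CPM. Immune markers summed to 1.32 to 2.30, nearly all from CD14 at 0.806 to 1.61 CPM and CD68 at 0.364 to 1.06 CPM, with PTPRC, the pan-leukocyte marker, at no more than 0.0282, and the 2 endothelial markers summed to 0.0701 to 0.301.

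Levels in CPM are UMIs of a gene per 1000000 UMIs of all genes, summed over the annotated cells of a population, with an exact 95% Poisson interval. These intervals, and those of the ratios and shares that follow, cover counting error only: with 1 library per condition the spread between cultures is unknown, cells are not replicates, and no p-value is given. Because the 3′ protocol counts 1 tag per transcript, CPM values carry no term for gene length, but capture of different transcripts may differ, so genes are compared mainly with themselves. In summed counts, fewer cells with a transcript and less transcript per cell cannot be told apart.

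TGFB1 and TGFB3 were the ligands with appreciable transcript, and their order was opposite in the sensitive monoculture and in the other populations. TGFB1, the most widely produced isoform, lies on the minus strand of chromosome 19, from 41807492 to 41859827 (GRCh37). Its level was 4.07 CPM in the sensitive monoculture (interval 3.68 to 4.50), 10.8 CPM in the sensitive coculture (10.0 to 11.6), 9.74 CPM in the resistant coculture (9.31 to 10.2) and 12.1 CPM in the resistant monoculture (11.7 to 12.5). The sensitive monoculture thus stood apart from the other 3 populations, whose intervals overlapped only between the 2 cocultured lineages. TGFB3, on the minus strand of chromosome 14 from 76424440 to 76449354, went the other way. It was at 8.52 CPM in the sensitive monoculture (7.95 to 9.12), 5.23 CPM in the sensitive coculture (4.71 to 5.79), 3.70 CPM in the resistant coculture (3.43 to 3.97) and 3.47 CPM in the resistant monoculture (3.25 to 3.70). Both sensitive populations were above both resistant ones, and the 2 resistant populations overlapped. TGFB2, an isoform that depends on TGFBR3 for efficient binding, lies on the plus strand of chromosome 1 from 218518678 to 218617961. It was close to the limit of the data at 0.997, 0.197, 0.0501 and 0.0185 CPM in the 4 populations, from 96, 14, 10 and 5 UMIs.

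The summed level of the 3 ligands differed little, at 13.6, 16.2, 13.5 and 15.6 CPM, whereas its makeup was not the same. TGFB1 made up 29.97% of ligand UMIs in the sensitive monoculture (exact binomial interval 27.5% to 32.5%), 66.5% in the sensitive coculture (63.7% to 69.2%), 72.2% in the resistant coculture (70.5% to 73.9%) and 77.6% in the resistant monoculture (76.4% to 78.9%). TGFB3 made up 62.7% in the sensitive monoculture but 32.3%, 27.4% and 22.2% in the others. TGFB2 made up 7.34% in the sensitive monoculture and 1.22%, 0.371% and 0.118% in the others. None of these 4 intervals of the TGFB1 share overlapped. In the annotation, TGFB1 shares part of its span with HNRNPUL1 and CCDC97 and TGFB3 lies within IFT43, in each case on the opposite strand, and the 3′ kit used keeps the strand of a transcript. On the same strand, TGFB1 overlaps 1 noncoding gene, TGFB2 overlaps TGFB2-OT1, TGFBR3 overlaps RN7SL653P, SMAD2 overlaps 3 short gene models and SMAD4 overlaps 1 protein-coding model, and reads from such shared stretches cannot be told apart.

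**Figure D1:**
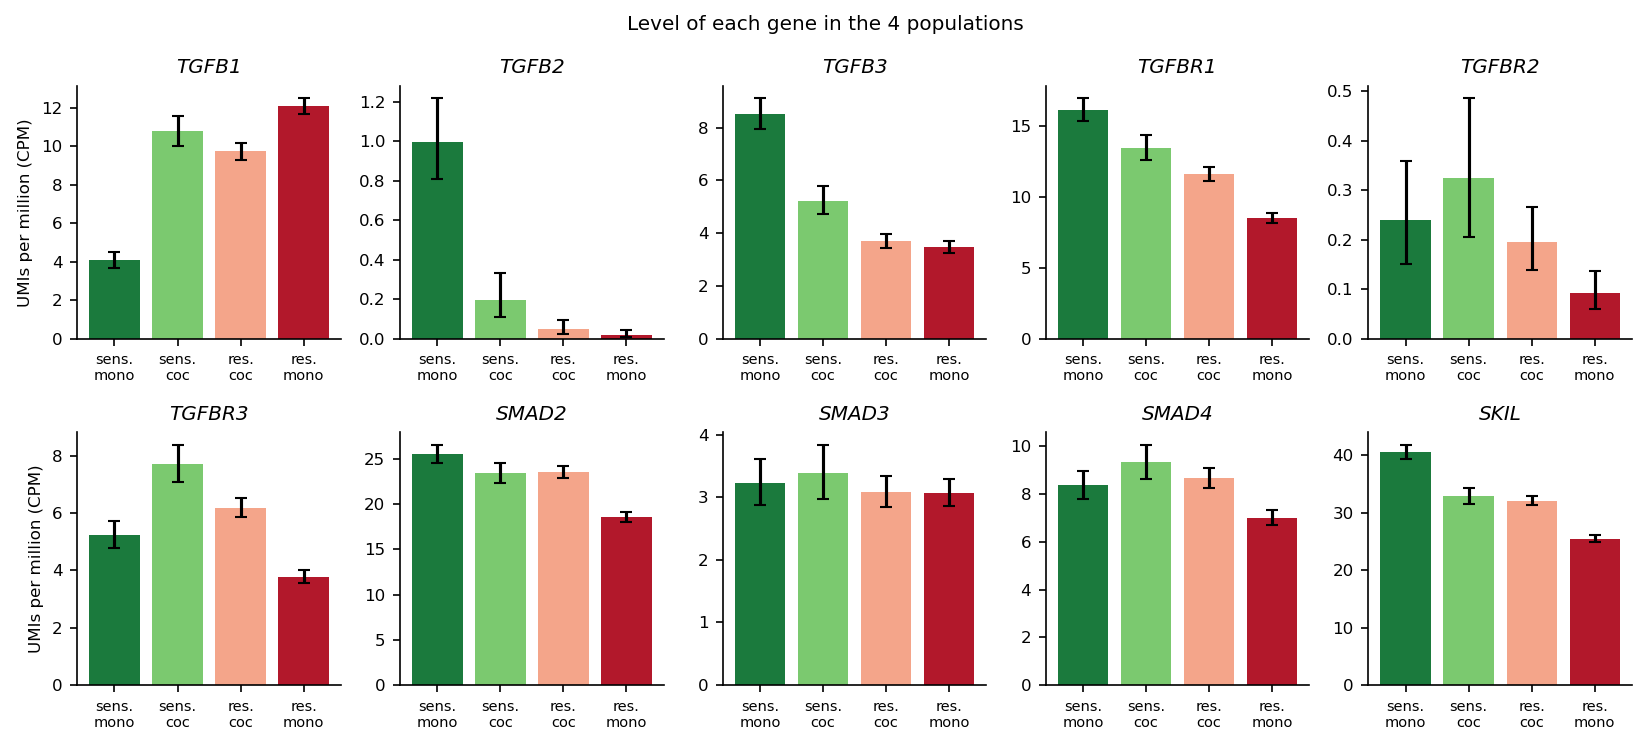
Level of each of the 10 genes in the 4 populations, in CPM on an axis that starts at 0 and is set for each gene; bars are the summed level of a population of 1 library and whiskers the exact 95% Poisson interval. TGFB1 was lowest and TGFB2, TGFB3, TGFBR1, SMAD2 and SKIL were highest in the sensitive monoculture.

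Of the receptors, TGFBR1 and TGFBR3 were readily counted and TGFBR2 was almost absent from the counts. TGFBR1, the type I receptor kinase (also known as ALK5), lies on the plus strand of chromosome 9 from 101866320 to 101916474. Its level was 16.1 CPM in the sensitive monoculture (15.3 to 17.0), 13.4 CPM in the sensitive coculture (12.6 to 14.3), 11.6 CPM in the resistant coculture (11.1 to 12.1) and 8.51 CPM in the resistant monoculture (8.16 to 8.86), with no overlap between neighbours in this order. TGFBR3, on the minus strand of chromosome 1 from 92145900 to 92371892, had another order. It was highest in the sensitive coculture at 7.72 CPM (7.08 to 8.39), followed by the resistant coculture at 6.19 (5.85 to 6.54), the sensitive monoculture at 5.24 (4.79 to 5.71) and the resistant monoculture at 3.78 (3.56 to 4.02). Both cocultured populations were thus above both monocultures.

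TGFBR2, the receptor that first binds TGFB1 and TGFB3, lies on the plus strand of chromosome 3 from 30648093 to 30735634. It was counted 23, 23, 39 and 25 times, or 0.239, 0.324, 0.195 and 0.0923 CPM. Only 0.661%, 1.07%, 0.588% and 0.318% of cells had a UMI of it. For comparison, VWF, an endothelial gene that a luminal line should lack, had a UMI in 0.781%, 0.583%, 0.366% and 0.225% of cells, and CDH5, another endothelial gene, in 0.0300%, 0.0971%, 0.0954% and 0.0132%. The share of cells with a TGFBR2 UMI was thus above that of CDH5, but its interval overlapped that of VWF in each population. Other markers of foreign cell types lay on both sides of it, with PTPRC, CD3E, PDGFRB, LYZ, COL1A2, DCN and LUM below it and CD14, CD68 and COL1A1 above it in every population. At this depth TGFBR2 could not be told from VWF.

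The SMAD genes were counted in all populations, and none of them differed by 1.5-fold in any of the 4 comparisons given further on. SMAD2, on the minus strand of chromosome 18 from 45335328 to 45457517, was at 25.6, 23.4, 23.6 and 18.6 CPM, and the interval of the resistant monoculture (18.1 to 19.1) met none of the others. SMAD3, on the plus strand of chromosome 15 from 67356101 to 67487511, was at 3.23, 3.39, 3.08 and 3.07 CPM, and all of its intervals overlapped. SMAD4, the partner shared with the BMP branch, lies on the plus strand of chromosome 18 from 48554898 to 48611415 and was at 8.37, 9.34, 8.68 and 7.00 CPM. Again the resistant monoculture was lowest, with an interval of 6.69 to 7.33 that met none of the others. SKIL, on the plus strand of chromosome 3 from 170075130 to 170114623, was the member with the highest count. It was at 40.6 CPM in the sensitive monoculture (39.3 to 41.9), 32.9 in the sensitive coculture (31.6 to 34.3), 32.1 in the resistant coculture (31.3 to 32.9) and 25.4 in the resistant monoculture (24.8 to 26.0), and the 2 cocultured lineages overlapped.

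To ask how the lineages differed when grown apart, the resistant monoculture was set against the sensitive monoculture. Genes with at least 50 UMIs over both populations were kept, and a gene counted as past the fold if its CPM ratio was at least 1.5 in either direction. This held for 30.1% of the 12970 genes kept, and for 5 of the 9 members kept, with TGFBR2 under the minimum. TGFB1 was 2.97-fold higher in the resistant monoculture (exact conditional interval 2.67 to 3.31). TGFB3 was 2.46-fold lower (2.24 to 2.70), TGFBR1 1.897-fold lower (1.78 to 2.02) and SKIL 1.60-fold lower (1.53 to 1.66). TGFB2 was 54.0-fold lower, but the 5 UMIs behind it left an interval of 22.4 to 170.2, and with 1 CPM added to both levels its ratio was 0.510. In cells under 15% mitochondrial UMIs the TGFB1 ratio went from 2.97 to 1.83 and the TGFBR1 ratio from 0.527 to 0.912. SKIL came within the fold with the phases weighted equally (0.685), with at least 2 transgene UMIs (0.688) and with TMM factors (0.678). The remaining members kept were all lower and within the fold: TGFBR3 1.38-fold, SMAD2 1.38-fold, SMAD4 1.20-fold and SMAD3 1.05-fold, the last with an interval of 0.921 to 1.20. The median log2 ratio of the members kept was -0.47, beside -0.09 for all genes kept.

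In the mixed spheroid, where both lineages were in 1 library, the members differed far less. Among 12774 genes, 13.2% were past the fold, and of 9 members kept only TGFBR2 was, at 1.66-fold lower in resistant cells from 39 and 23 UMIs, with an interval (0.947 to 2.85) that includes no difference. TGFB1 was 1.11-fold lower in the resistant cells (1.02 to 1.20), the opposite direction to that between the monocultures, but in G1 cells alone the ratio was 1.04 and the direction turned. TGFB3 kept its direction, at 1.42-fold lower (1.25 to 1.61), as did TGFBR3 at 1.25-fold (1.13 to 1.38) and TGFBR1 at 1.16-fold (1.08 to 1.25). The ratios of SMAD2, SMAD3, SMAD4 and SKIL were 1.01, 0.910, 0.929 and 0.976, each with an interval that includes 1. TGFB2, with 10 and 14 UMIs, was under the minimum. COL3A1, at 35.2 CPM in the sensitive and 0.181 CPM in the resistant monoculture, was at 18.7 and 2.12 CPM in the cocultured lineages. The part of RNA or labels crossing between lineages in the mixed library was not tested.

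The effect of company on sensitive cells was read from the sensitive coculture against the sensitive monoculture, which shares its reference with the comparison of the monocultures. Of 12327 genes, 18.3% were past the fold, and of 9 members kept 3 were, all of them ligands. TGFB1 was 2.65-fold higher in coculture (2.34 to 3.0), TGFB3 was 1.63-fold lower (1.44 to 1.85) and TGFB2 was 5.05-fold lower (2.87 to 9.59), or at 0.600 times with 1 CPM added. The TGFB3 ratio of 0.614 went to 0.702 in G1 cells and to 0.758 with the 3 phases weighted equally, both within the fold. Within cluster 3 of the authors' clusters, described further on, TGFB1 and TGFB3 were also within the fold, at 1.27 and 1.13. TGFBR3 was just inside the fold at 1.47-fold higher (1.30 to 1.67). Its ratio under the alternatives ran from 0.951 within cluster 3 to 1.61 with at least 2 transgene UMIs. TGFBR1 and SKIL were 1.20-fold and 1.23-fold lower, and SMAD2, SMAD3 and SMAD4 had ratios of 0.917, 1.05 and 1.12. In cells under 15% mitochondrial UMIs the direction of TGFBR1 turned, to a ratio of 1.32. Among resistant cells, coculture against monoculture put 4.52% of 13156 genes past the fold, and 2 of the 9 members kept. Both were receptors. TGFBR3 was 1.63-fold higher in coculture (1.504 to 1.78), and TGFBR2, whose share of cells with a UMI overlapped that of VWF, was 2.12-fold higher from 39 and 25 UMIs (1.25 to 3.65). Both came within the fold under an alternative, TGFBR3 at 1.46 in G1 cells and TGFBR2 at 1.09 with 1 CPM added. TGFBR1 was 1.36-fold higher (1.28 to 1.44), SMAD2 1.27-fold, SKIL 1.26-fold and SMAD4 1.24-fold higher, whereas TGFB1 was 1.24-fold lower (1.17 to 1.31). TGFB3 and SMAD3 had ratios of 1.07 and 1.00 with intervals that include 1. A lineage's coculture and monoculture cells came from different libraries, and condition and library cannot be told apart.

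**Figure D2:**
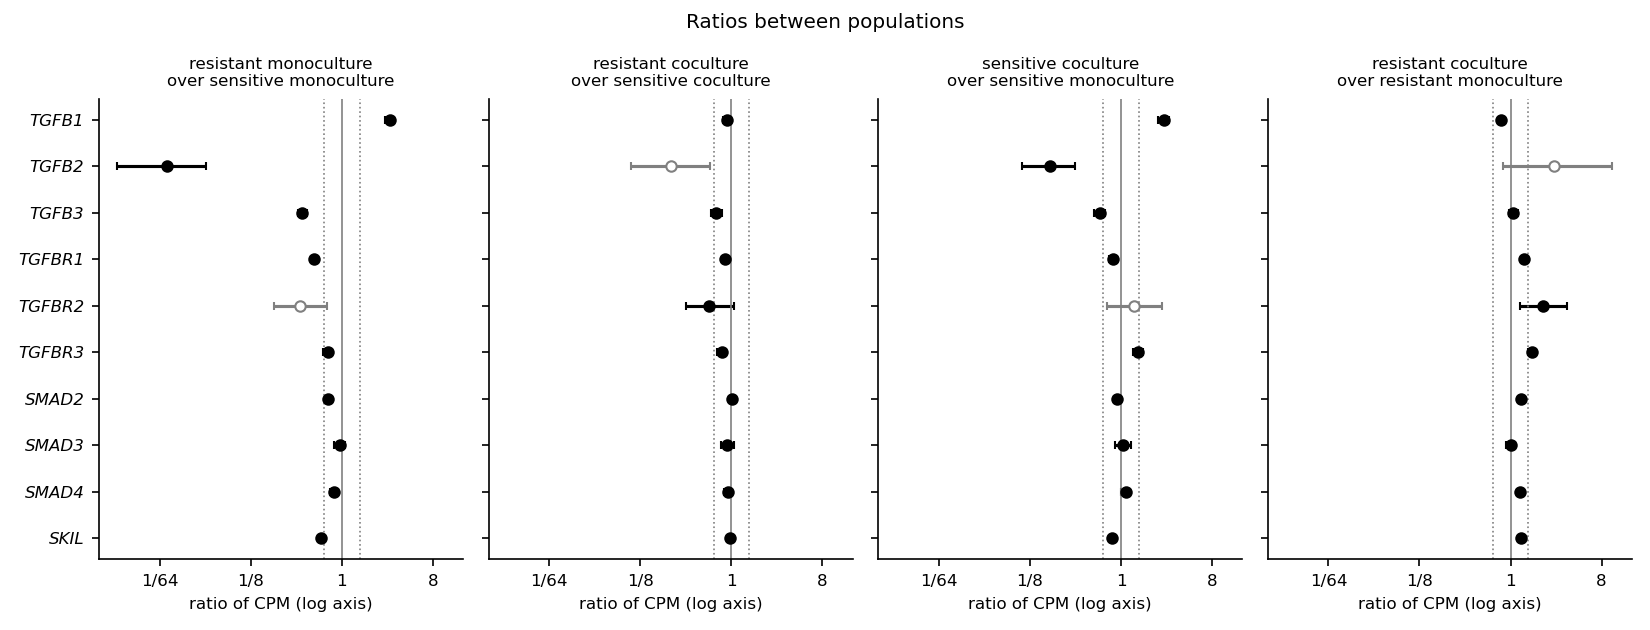
CPM ratio of each gene in the 4 comparisons on a log axis, with the exact conditional 95% interval; solid lines mark no difference, dotted lines 1.5-fold, and open grey points genes under 50 UMIs. TGFB1 lies to the right and TGFB2 and TGFB3 to the left in both panels with the sensitive monoculture as reference.

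Because few cells of the sensitive monoculture were cycling, levels were also taken within each cell cycle phase of the authors' annotation. In G1 cells alone, TGFB1 was at 3.59, 9.76, 10.2 and 12.7 CPM, so that the sensitive monoculture was again the lowest. With the 3 phases weighted equally, TGFB1 in the resistant monoculture was 2.02-fold and in the sensitive coculture 1.91-fold that in the sensitive monoculture. TGFB1 was higher in cycling cells of the sensitive monoculture, at 6.35 CPM in S phase and 7.67 CPM in G2M, which were 1.77-fold (1.25 to 2.45) and 2.14-fold (1.56 to 2.87) the G1 level. The G2M cells, with 53 UMIs, were below those of the sensitive coculture at 11.0 CPM, but the intervals overlapped (5.75 to 10.0 and 9.51 to 12.7). The S-phase cells, with 42 UMIs, were below those of the sensitive coculture at 12.8 CPM, without overlap. In the sensitive coculture the S and G2M levels of TGFB1 were 1.31-fold (1.10 to 1.55) and 1.13-fold (0.942 to 1.35) the G1 level. In both resistant populations they were 0.869 to 0.945 times the G1 level. The intervals of G2M in the resistant coculture and of S phase in the resistant monoculture include 1.

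TGFB3 and TGFBR1 differed between G2M and G1 in 1 direction in all populations. TGFB3 was lower outside G1, with G2M at 0.461, 0.581, 0.626 and 0.649 times the G1 level. TGFBR1 was higher in G2M, at 1.41, 1.45, 1.68 and 1.67 times its G1 level, and none of these 4 intervals includes 1. In S phase its ratios to G1 were 0.640, 0.891, 0.974 and 0.963, of which only the first, that of the sensitive monoculture, had an interval (0.494 to 0.817) that excludes 1. Its highest level in any phase was the 22.6 CPM of G2M cells of the sensitive monoculture and its lowest the 7.21 CPM of S-phase cells of the resistant monoculture. SKIL was lower in S phase than in G1 in each population, at 0.763, 0.834, 0.817 and 0.802 times. TGFBR3 was higher in G2M than in G1 at 1.23, 1.43, 1.40 and 1.23 times, with the first interval (0.882 to 1.68) including 1. SMAD4 in G2M was at 0.962, 1.22, 1.21 and 1.35 times its G1 level, whereas SMAD2 stayed within 0.983 to 1.11 times. Between G2M and G1, 24.6%, 13.2%, 12.7% and 13.6% of the genes kept were past the fold, and of the members kept 3 of 9, 1 of 8, 2 of 8 and 2 of 8. TGFB3 was among them in each population.

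**Figure D3:**
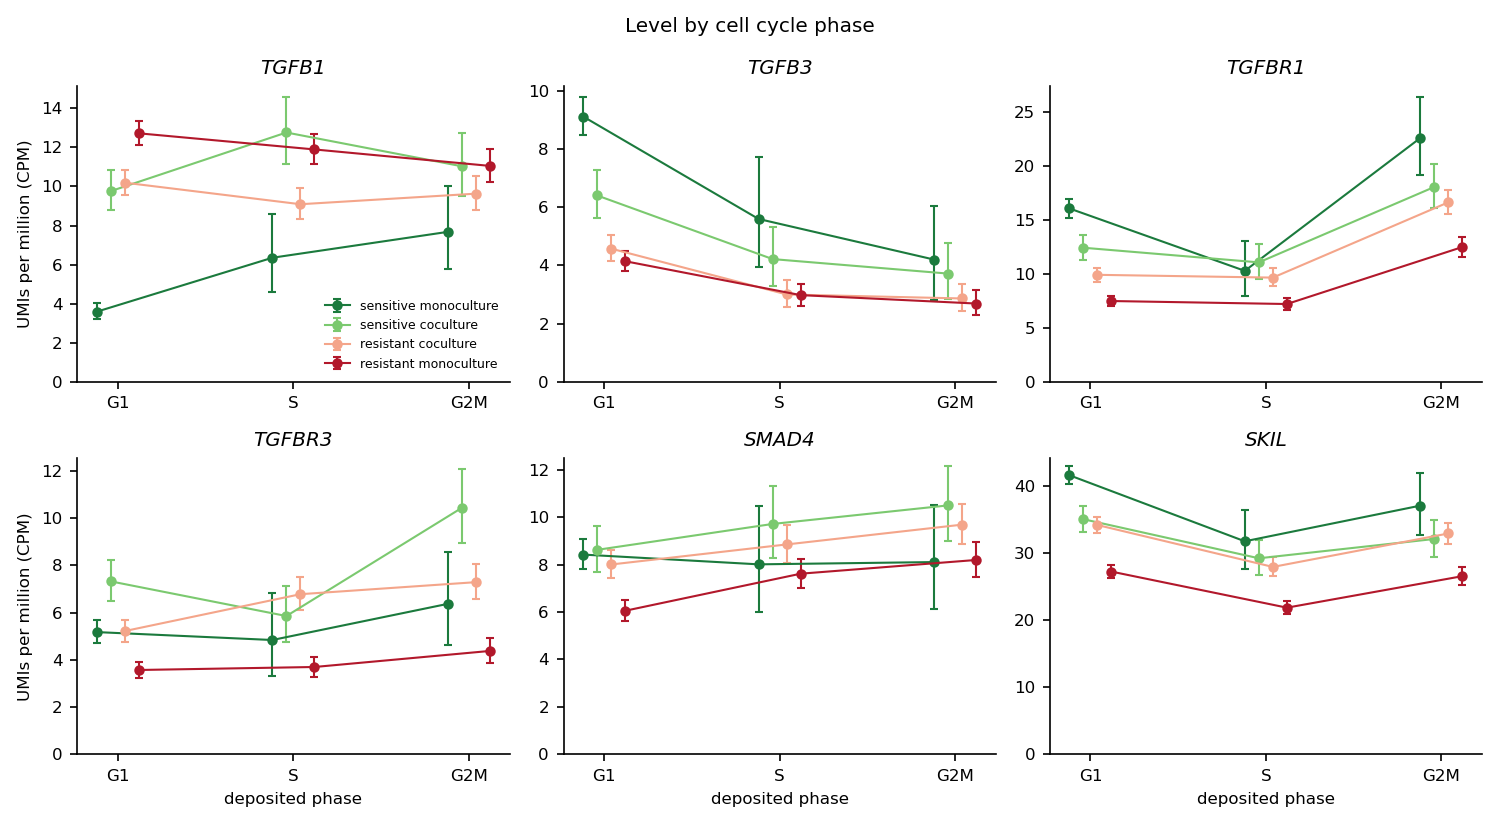
Level of 6 members by cell cycle phase (G1, S, G2M) in CPM from an axis start of 0; points are the summed level of the cells of a population in that phase, whiskers the exact 95% Poisson interval, and lines join the phases of a population. TGFBR1 peaks in G2M and TGFB3 is highest in G1 in all 4 populations. The TGFB1 level of the sensitive monoculture is the lowest in every phase. Its S interval overlaps that of the resistant coculture, and its G2M interval those of both cocultured populations.

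The deposited clusters, which the authors built from the most variable genes of the same cells and which give a description only, showed where in each population the ligands were found. In the sensitive monoculture TGFB1 was at 9.03 CPM in cluster 3 (267 cells), 6.49 CPM in cluster 7 (232 cells, nearly all cycling), 3.58 CPM in cluster 4 (1945 cells), 2.79 CPM in cluster 8 (681 cells) and 1.03 CPM in cluster 12 (156 cells). In the sensitive coculture cluster 3 was the largest, with 1087 cells, and cluster 4 held 84. Within the same cluster, TGFB1 in sensitive coculture over sensitive monoculture was 1.27-fold higher in cluster 3, 1.67-fold in cluster 7 and 1.91-fold in cluster 4. Over all sensitive cells it was 2.65-fold. The intervals of the levels overlapped in clusters 3 and 4. Cluster 4 held 17 UMIs in coculture (3.98 to 10.9 CPM). No interval of the ratio was computed within a cluster, and overlap of levels does not show that a ratio includes 1. The resistant populations had low TGFB1 in cluster 6, at 5.10 and 5.83 CPM in coculture and monoculture, and in cluster 10, at 5.32 and 4.77 CPM, against 9.69 and 12.6 CPM in their largest cluster, 0.

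TGFB2 was concentrated in cluster 8 of the sensitive monoculture, where 60 of its 96 UMIs were counted in 35 of 681 cells, for 3.99 CPM (3.05 to 5.14). Cluster 4 held 30 more at 0.510 CPM, and cluster 12 none in 156 cells, which allows a level of up to 0.770 CPM (3 counts). TGFB3 was highest in cluster 12 of the sensitive monoculture, at 23.6 CPM (19.05 to 29.0), where TGFB1 was lowest. SKIL was at 23.6 CPM in that cluster and at 36.0 to 42.1 CPM in the other 4 clusters of that population. In that population TGFB3 was also above TGFB1 in clusters 4 and 8, at 9.19 and 6.92 CPM. It was below TGFB1 in clusters 3 and 7, at 4.87 and 3.87 CPM. In cluster 4 of the sensitive coculture TGFB3 was at 8.84 CPM and TGFB1 at 6.83 CPM, with overlapping intervals. Within clusters 3, 4 and 7 the TGFB3 ratio of sensitive coculture over monoculture was 1.13, 0.962 and 1.04. The intervals of the levels overlapped in each, from 41, 541 and 34 UMIs in the monoculture. The lower TGFB3 of cocultured sensitive cells was thus not seen inside clusters 3 and 7. Cluster 4 held 22 TGFB3 UMIs in coculture (5.54 to 13.4 CPM). These were too few to tell no difference from the ratio of 0.614 over all sensitive cells. Clusters 8 and 12 of the sensitive monoculture were not compared with coculture. Of the other members, SMAD4 was 1.60-fold higher in coculture within cluster 3 and SMAD3 was at 0.557 times within cluster 4, from 4 UMIs in coculture. TGFBR1 was highest in the resistant populations in cluster 2, which held no G1 cells, at 18.8 CPM in coculture and 14.2 CPM in monoculture.

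**Figure D4:**
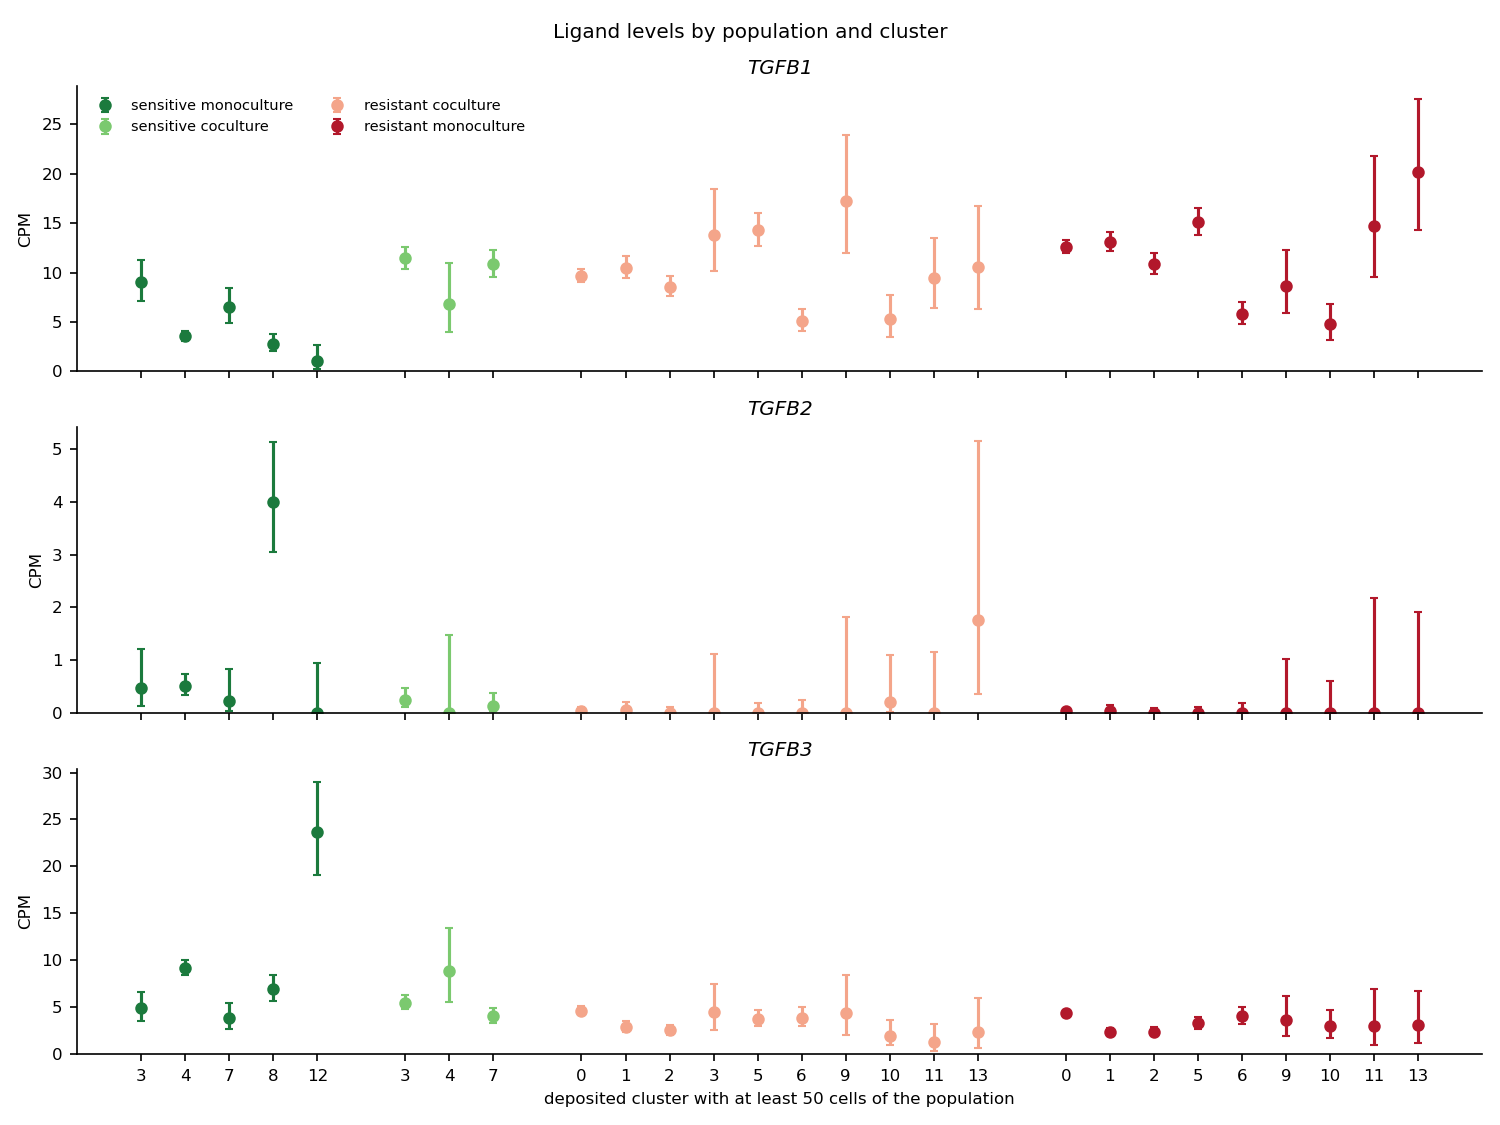
Level of the 3 ligands in each deposited cluster with at least 50 cells of a population, in CPM from an axis start of 0; points are summed levels, whiskers exact 95% Poisson intervals, and numbers along the axis are cluster names. TGFB2 stands above the rest in cluster 8 and TGFB3 in cluster 12 of the sensitive monoculture.

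The mitochondrial share of cells moved with some of these levels. In the sensitive monoculture, the 461 cells under 15% mitochondrial UMIs had TGFB1 at 6.72 CPM and TGFBR1 at 8.70 CPM, compared with 3.58 and 17.5 CPM in the 2868 cells at 15% or more; 72.9% and 91.6% of these cells were in G1. In the resistant monoculture the same split gave 12.3 and 11.9 CPM for TGFB1 and 7.93 and 9.02 CPM for TGFBR1. With cells under 15% only, TGFB1 in resistant over sensitive monoculture was still 1.83-fold higher and TGFB3 was at 0.510 times, but TGFBR1 was at 0.912 times and no longer past the fold, whereas TGFBR3, at 0.604 times, was. The part of cell quality in these results was not tested.

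The share of cells with a TGFB1 UMI followed the order of its levels, with and without equal depth. After each cell was thinned to 10000 UMIs, TGFB1 was seen in 3.97% of cells of the sensitive monoculture (interval 3.33% to 4.69%) and 9.28% of those of the sensitive coculture (8.06% to 10.6%). In the resistant lineage it was seen in 8.60% of cells in coculture (7.92% to 9.32%) and 10.5% of cells in monoculture (9.87% to 11.3%). Without thinning these shares were 9.85%, 27.1%, 23.2% and 29.3%. The thinned shares of TGFB3 were 8.93%, 5.39%, 3.50% and 3.38%, and those of TGFBR1 15.9%, 12.7%, 11.0% and 8.09%. SKIL reached 31.3%, 25.7%, 26.5% and 21.6% and SMAD2 22.6%, 21.1%, 20.2% and 16.8%. UMIs of both signalling receptors, TGFBR1 and TGFBR2, were seen together in only 13 of 3329, 5 of 2059, 14 of 6292 and 4 of 7557 cells (0.391%, 0.243%, 0.223% and 0.0529%). A TGFB1 and a TGFBR1 UMI were found together in 3.27%, 8.79%, 6.79% and 7.15% of cells at full depth.

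The wider pathway was read from 4 lists, some of which share genes. For storage and activation of latent TGFB, 6 of 13 genes were at 1 CPM or more in every population and 7 were below it in every one. LTBP3, a latent TGFB binding protein, was the highest at 121.8 CPM in the sensitive monoculture and 166.7 CPM in the resistant monoculture. Its relative LTBP1 was 3.26-fold lower in the resistant than in the sensitive monoculture, at 13.1 against 42.8 CPM, and THBS1, or thrombospondin, which activates latent TGFB, was 2.57-fold lower, at 18.0 against 46.3 CPM. FBN1, a microfibril gene, was 4.89-fold higher, from 55 and 4 UMIs (interval 1.80 to 18.6). Of 8 genes kept in that comparison 1 was past the fold upward and 3 downward, beside 30.1% of all genes, of which 1501 were higher and 2397 lower. The median log2 ratio of these 8 genes was 0.19, above the -0.09 of all genes. In sensitive coculture over monoculture none of the 7 kept was past the fold in either direction, beside 18.3% of all genes; the ratios farthest from 1 were those of FURIN, a protease that processes TGFB precursors, at 0.685, LTBP1 at 0.711 and LTBP3 at 1.17.

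In a list of related ligands, receptors and antagonists, mostly of the activin branch, which also signals through SMAD2 and SMAD3, 7 of 16 genes were at 1 CPM or more in every population. Of 11 kept, 2 were higher and 3 lower in the resistant monoculture (all genes 30.1%), with ACVRL1 at 3.62-fold higher and ENG, or endoglin, at 2.69-fold higher, both from levels under 1 CPM. These are a type I receptor and a co-receptor known for binding BMP9 and BMP10 and for signalling through other SMAD proteins than SMAD2 and SMAD3. FST, the activin antagonist follistatin, was 9.01-fold lower from 15 and 48 UMIs. In sensitive coculture over monoculture, 3 of 10 were higher and none lower (all genes 18.3%): FST at 2.72-fold (1.35 against 0.499 CPM), ENG at 2.01-fold and the ligand GDF11 at 1.79-fold (8.01 against 4.47 CPM).

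All 20 inhibitors and regulators passed the minimum. Between the monocultures 1 was higher and 8 lower in resistant cells (all genes 30.1%), with a median log2 ratio of -0.43 beside -0.09 for all genes. BAMBI, a pseudoreceptor that blocks TGFB signalling, was at 41.4 CPM in the sensitive monoculture, 15.3 in the sensitive coculture, 7.19 in the resistant coculture and 6.11 in the resistant monoculture, which made it 6.76-fold lower in resistant than in sensitive monoculture and 2.70-fold lower in sensitive coculture than in sensitive monoculture. The inhibitory SMAD6 was 5.57-fold and 3.46-fold lower in those comparisons. The corepressor TGIF2 was the gene that was higher, at 2.18-fold between the monocultures, while its relative TGIF1 was 1.71-fold lower in sensitive coculture than in monoculture. There, 1 of 20 was higher (TGIF2, at 1.60-fold) and 4 lower, beside 18.3% of all genes past the fold, with a median log2 ratio of -0.32 beside -0.06 for all genes.

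Of 29 genes known to be induced through SMAD2 and SMAD3, 10 were below 1 CPM in every population. Among them was CCN2, a commonly used readout of the pathway, at no more than 0.0519 CPM. It was singled out, as were TAGLN, SMAD7 and PMEPA1, after its value was seen. The share of all genes below 1 CPM was not counted, here or for the other lists. Of 23 kept between the monocultures, 1 was higher (TAGLN, a cytoskeletal gene, at 1.78-fold) and 14 were lower in resistant cells, beside 30.1% of all genes past the fold, with a median log2 ratio of -0.88 (-0.59 after a pseudocount of 1 CPM was added) beside -0.09 for all genes. SNAI2, an epithelial plasticity factor, was 27.6-fold lower from 5 and 49 UMIs (interval 0.0113 to 0.0905 as a ratio). NEDD9, a scaffold protein of cell adhesion, was 5.74-fold lower, at 3.20 against 18.4 CPM, and ANGPTL4, a secreted regulator of lipid metabolism, was 4.14-fold lower. In sensitive coculture over monoculture none was higher and 10 of 23 were lower (all genes 18.3%), with a median log2 ratio of -0.45 beside -0.06; CDKN2B, the CDK4 and CDK6 inhibitor p15, was 2.07-fold lower, at 4.43 against 9.16 CPM. Across the same comparisons the list also holds SMAD7 and PMEPA1, direct targets and feedback inhibitors, whose levels of 3.30 to 3.97 CPM and 33.9 to 45.0 CPM differed by less than 1.5-fold. Between the lineages in coculture, 2 of 22 targets were higher and 4 lower in resistant cells (all genes 13.2%), and between resistant coculture and monoculture 3 of 22 were higher and none lower (all genes 4.52%). In coculture the counts past the fold were 0 upward and 1 downward of 7 storage genes, 1 and 2 of 11 activin genes and 0 and 2 of 20 inhibitors, and between the resistant populations they were 1 and 1 of 8, 1 and 1 of 11, and 0 and 0 of 20.

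**Figure D5:**
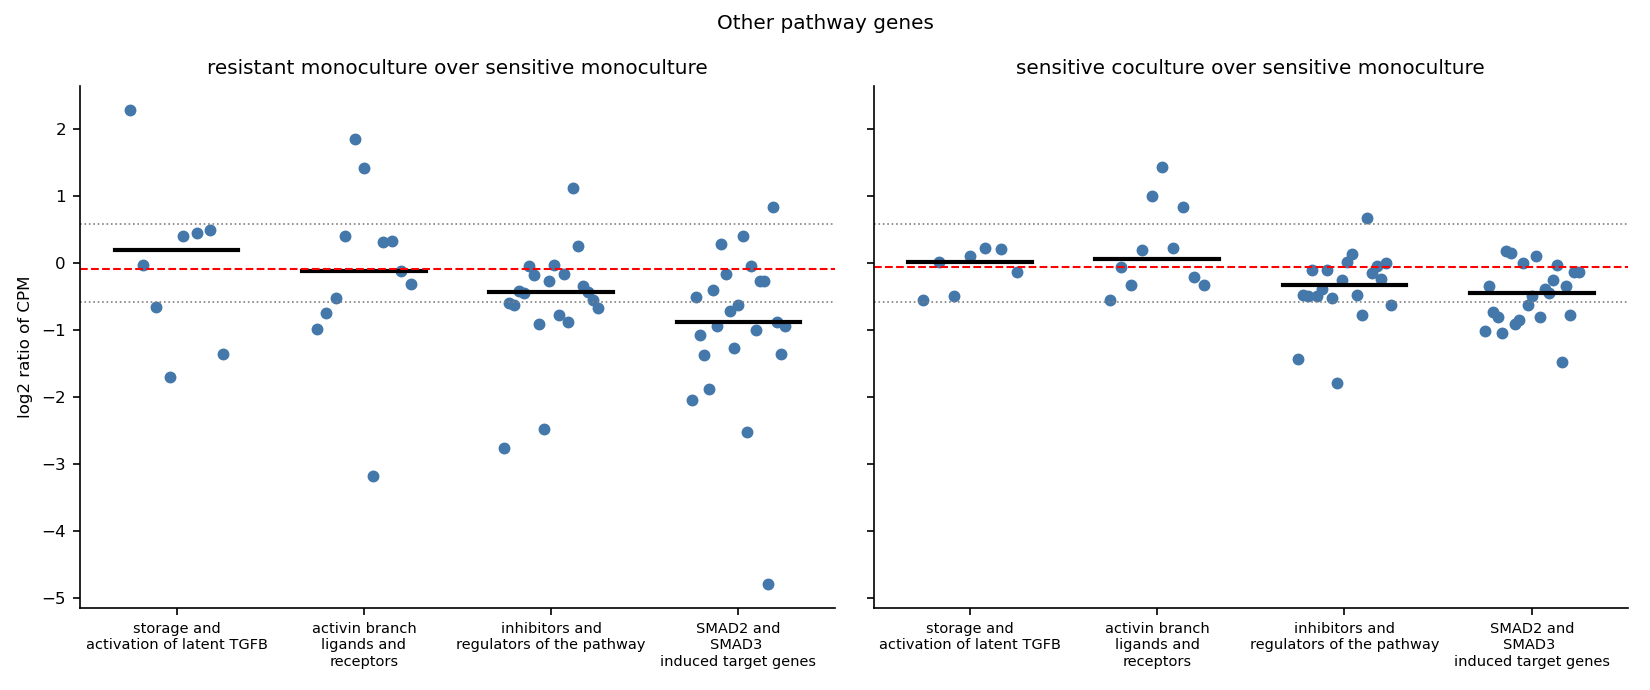
Log2 CPM ratio of every kept gene of the 4 lists in resistant over sensitive monoculture (left) and in sensitive coculture over sensitive monoculture (right); black bars are list medians, the dashed red line is the median of all genes kept and dotted lines mark 1.5-fold. The target list has the lowest median in both panels, at -0.88 and -0.45.

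The 3 members with the widest range of log2(CPM + 1) over the 12 groups of population and phase were TGFB1, TGFBR1 and TGFB3, at 1.58, 1.52 and 1.46; the added 1 CPM narrows the range of low genes such as TGFB2 and TGFBR2. Of the 6777 genes that averaged 10 CPM or more, those whose log2 level ran most like that of TGFB1 over the 12 groups were FAU, RPL28 and RPS19, with Pearson correlations of 0.939, 0.931 and 0.925. For TGFBR1 they were KDM2A, WSB1 and CREBBP, at 0.970, 0.963 and 0.962, and for TGFB3 they were KIAA0319L, TSTD1 and DAPK3, at 0.991, 0.984 and 0.983. The 12 groups come from 3 libraries, which they share, and are not independent.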

How the data were processed

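The deposited files held UMI counts per gene and cell, which the authors made from 10x 3′ v3 libraries with Cell Ranger 3.0.2 on GRCh37 (annotation not given in the sources used here). The authors' cell table gave UMI and gene counts per cell, the percent of mitochondrial UMIs, cell cycle scores, phase, population and cluster. The authors describe limits on genes, UMIs and mitochondrial share per cell, removal of doublets by score, and a minimum of 2 transgene UMIs to keep a cell. No doublet caller was run here, and 8 columns of the cell table were not used. In the cell table, every coculture cell had a UMI of its own transgene, but only 67.8% of sensitive and 72.9% of resistant monoculture cells did, so that the deposited labels depart from that minimum.

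Rows without a symbol (0.523% to 0.591% of UMIs) were left out. Counts were summed over annotated cells of a population, divided by the total of the population and given as CPM. Ratios have exact conditional intervals, and genes needed 50 UMIs over both populations. Cells were thinned to 10000 UMIs for shares. A count of 0 allows 3 counts. The ratios and their intervals were tried on simulated Poisson counts. These held no spread between cultures or cells beyond counting error, so such spread was not covered. With 1 library per condition no test across cells was run. Gene spans are from GENCODE on GRCh37.

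Alternatives were G1 cells only, equal weights for the 3 phases, at least 2 transgene UMIs, no cells of the deepest 10%, a pseudocount of 1 CPM, TMM factors (edgeR 4.0.16, R 4.3.3), the mean of per-cell CPM, minimums of 200 UMIs or none, and an assumed 10% of resistant-cell RNA in cocultured sensitive cells. Those without mitochondrial UMIs, with cells under 15% mitochondrial UMIs and within a cluster were chosen after seeing the data. The members and lists were chosen with earlier results of these data known. Named genes are the members, from each list the 3 with the ratio farthest from 1 in resistant over sensitive monoculture and in sensitive coculture over monoculture, and the 3 genes most like each of the 3 members of widest range. Python 3.11.15, numpy 2.4.6, scipy 1.17.1, pandas 2.3.3 and matplotlib 3.10.9 were used.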

Additional observations from a re-analysis of the deposited data

Results flagged for a closer look

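For 4 members the ratio of coculture over monoculture lay above 1 in one lineage and below 1 in the other, with neither 95% interval including 1. For TGFB1 it was 2.65 in sensitive and 0.805 in resistant cells. For TGFBR1 it was 0.833 and 1.36, for SMAD2 0.917 and 1.27, and for SKIL 0.811 and 1.26. The difference between the lineages was not tested, since each population came from 1 library and both cocultured populations from the same one. How many of all genes meet this rule was not counted. The median log2 ratio of all genes was itself -0.06 in sensitive and 0.04 in resistant cells. In sensitive cells under 15% mitochondrial UMIs the TGFBR1 ratio was 1.32, on the same side as in resistant cells, and within cluster 4 the ratios of SMAD2 and SKIL were 1.11 and 1.12.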

How the results depend on the processing

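Of 117 alternative values of the 11 ratios past 1.5-fold, 104 stayed past it in the same direction, and of 307 alternative values of the other ratios 5 went past it. The count of members past the fold was 5 between the monocultures and 3 where at least 2 transgene UMIs were asked for, since TGFB2 then had under 50 UMIs and SKIL was at 0.688 times; it was 4 with the phases weighted equally and with TMM factors (SKIL at 0.685 and 0.678 times), with a minimum of 200 UMIs and under 15% mitochondrial UMIs, and 6 with no minimum. The share of all genes past the fold between the monocultures also moved, from 30.1% to 29.3% with 2 transgene UMIs. It was 24.8% with equal phases, 29.0% with TMM factors and 26.9% with 200 UMIs. Under 15% mitochondrial UMIs it was 24.1%, and with no minimum 41.6%. Between the lineages in coculture the count of 1 became 2 with no minimum and 0 in G1 cells, with 2 transgene UMIs, with a pseudocount of 1 CPM, with a minimum of 200 UMIs and in cells under 15% mitochondrial UMIs. Between the resistant populations the count of 2 became 0 in G1 cells and 1 with 2 transgene UMIs, with the pseudocount, with the minimum of 200 UMIs and under 15% mitochondrial UMIs, and 3 with no minimum. Where these 2 counts fell, TGFBR2 was under the minimum or, under the pseudocount, within the fold, and TGFBR3 between the resistant populations was at 1.46 in G1 cells. Of all genes, 13.2% were past the fold between the lineages in coculture. That share was 28.4% with no minimum, 12.7% in G1 cells, 6.14% with the pseudocount and 9.55% with 200 UMIs. Between the resistant populations it was 4.52%, and 19.4%, 4.15%, 0.699% and 2.47% under the same settings. For sensitive coculture over monoculture the count of 3 became 1 within cluster 3 (SMAD4 at 1.60, with TGFB1 at 1.27), 2 within cluster 4 (TGFB1 at 1.91, SMAD3 at 0.557) and 1 within cluster 7 (TGFB1 at 1.67). It became 2 in G1 cells and with the phases weighted equally (TGFB3 at 0.702 and 0.758), and 2 with the minimum of 200 UMIs and under 15% mitochondrial UMIs, where TGFB2 was under the minimum, and 4 after the correction for resistant-cell RNA (TGFBR3 at 1.51); with 2 transgene UMIs it was still 3, with TGFBR3 at 1.61 in place of TGFB2. Of all genes, 18.3% were past the fold in sensitive coculture over monoculture. That share was 10.8%, 15.9% and 10.0% within clusters 3, 4 and 7, 15.1% in G1 cells and 12.3% with equal phases. It was 15.4% with 200 UMIs, 13.5% under 15% mitochondrial UMIs, 18.4% after the correction and 18.2% with 2 transgene UMIs. TGFB3 within clusters 3 and 7 was at 1.13 and 1.04, above 1 but with overlapping intervals of the levels. The cause was not tested. TGFB1 between the monocultures ranged from 1.83 to 3.54, lowest in cells under 15% mitochondrial UMIs and highest in G1 cells. TMM factors moved the median log2 ratio of all genes between the monocultures from -0.09 to 0.02. Leaving out a replicate was not possible with 1 library per condition. No paired analysis was possible because each condition has 1 library. Counts of TGFB2 and TGFBR2, 5 to 96 UMIs per population, limit what can be said of them.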
